A study of Homo sapiens with 11 samples.

Results

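SYT11, SHISA2, NANOS1, SRPX, GJB2 and TMSB10 are 6 genes of the 58735 listed for HEK293T cells in which NAE1, UBE2M or URM1 was knocked down by siRNA, and all 6 passed the filter on low counts that left 18368 genes. They were chosen by name because they stood out against control in these same libraries: SYT11 for its rise with siNAE1, SHISA2 and NANOS1 for their rise with siURM1, and SRPX, GJB2 and TMSB10 for a rise in all 3 knockdowns. Their differences from control are therefore given as a description, without a test, and tests are kept for comparisons between knockdowns that the choice did not use as such. The choice did use the same libraries, so these tests are not fully independent of it.

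HEK293T is a human embryonic kidney line that carries the simian virus large T antigen. The cells were transfected for 48 h with an siRNA against NAE1 (50 nM, n = 3), UBE2M (70 nM, n = 3) or URM1 (60 nM, n = 2), and 3 control libraries are labelled as control siRNA with no dose given, while the study's supplement names the control samples HKWT. The labels call the libraries biological replicates without saying whether they came from separate cultures, so the p-values measure the spread between these libraries. The question of the design was which expression patterns depend on URM1 and on NAE1/UBA3 and UBE2M, which the study examined as its activating and conjugating enzymes. Poly(A) mRNA was sequenced from cells in bulk, so fewer cells expressing a gene and less of its RNA per cell cannot be told apart.

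NAE1 pairs with UBA3 as the E1 enzyme that activates the ubiquitin-like protein NEDD8, and UBE2M is an E2 enzyme that carries NEDD8 to cullins, the scaffolds of a large family of ubiquitin ligases. URM1 is an old member of the ubiquitin-like family that serves as a sulfur carrier in the thiolation of transfer RNAs and can also be attached to proteins. The 6 genes belong to no common pathway: SYT11 is a vesicle membrane protein of the synaptotagmin family, SHISA2 an endoplasmic reticulum protein that restrains FGF and Wnt receptors, NANOS1 a zinc finger protein that represses mRNAs together with Pumilio, SRPX a secreted sushi-repeat protein, GJB2 a gap junction connexin and TMSB10 a small peptide that binds actin monomers.

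Library totals ranged from 11733163 to 16321391 counts. The targeted mRNA was reduced in each knockdown: NAE1 to 38.9% of the control mean CPM (counts scaled to library size) with siNAE1, UBE2M to 6.34% with siUBE2M and URM1 to 28.6% with siURM1. All 7 markers of HEK293 cells that were looked for had at least 3 counts in every library, and their summed CPM was 478 to 530 in control, 689 to 738 with siNAE1, 591 to 682 with siUBE2M and 746 to 780 with siURM1, above control in every knockdown library. Single markers went both ways: with siUBE2M the mean CPM of VIM was 336 against 174 in control, that of LIN28B 50.4 against 88.7 and that of PAX2 5.35 against 10.0. NEFM had a mean CPM of 178 with siNAE1, 178 with siURM1 and 71.8 with siUBE2M, against 78.0 in control. Of 10 markers of blood, macrophage, endothelial, liver, fibroblast and squamous cells only COL1A1 had 3 counts in every library. The summed CPM of those 10 was 20.0 to 23.4 in control, 17.1 to 21.5 with siNAE1, 25.4 to 30.4 with siUBE2M and 21.9 to 23.7 with siURM1. The part of either sum in the differences below was not tested.

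The promoters of 3 of the genes are shown because each carries a feature a reader can look for beside the expression values: a tandem repeat in SYT11, and in SHISA2 and TMSB10, which rose in different patterns, the letters TATAAG at almost the same distance from the start. Each is the 250 bases before the gene's RefSeq start (GRCh38.p14), printed 5′ to 3′ on the gene's strand. Capitals in SYT11 (chr1:155859317-155859566, plus strand) mark both copies of the repeat. Capitals in SHISA2 (chr13:26052017-26052266, minus strand) and TMSB10 (chr2:84905406-84905655, plus strand) mark TATAAG and GGGCGG or its reverse complement.
SYT11: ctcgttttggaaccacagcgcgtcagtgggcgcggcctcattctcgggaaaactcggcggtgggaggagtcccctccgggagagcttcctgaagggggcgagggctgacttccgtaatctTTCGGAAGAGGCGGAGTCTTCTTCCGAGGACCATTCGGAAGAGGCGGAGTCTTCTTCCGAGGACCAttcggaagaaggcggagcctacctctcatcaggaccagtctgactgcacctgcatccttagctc
SHISA2: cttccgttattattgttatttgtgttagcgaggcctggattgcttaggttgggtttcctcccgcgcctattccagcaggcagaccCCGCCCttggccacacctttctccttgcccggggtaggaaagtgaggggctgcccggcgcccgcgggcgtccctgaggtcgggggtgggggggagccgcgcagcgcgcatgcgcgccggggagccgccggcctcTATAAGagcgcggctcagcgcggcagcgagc
TMSB10: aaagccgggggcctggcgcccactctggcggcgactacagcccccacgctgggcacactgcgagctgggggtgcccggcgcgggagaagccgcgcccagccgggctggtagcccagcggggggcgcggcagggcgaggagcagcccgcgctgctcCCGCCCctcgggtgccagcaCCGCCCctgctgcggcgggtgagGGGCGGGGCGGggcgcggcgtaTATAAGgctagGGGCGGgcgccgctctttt

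The repeat unit in SYT11 is 33 bases long, and its copies begin 130 and 97 bases before the start and adjoin each other. A repeat at least that long was present in 0.718% of 27305 RefSeq promoters of the same length. TATAAG began 31 bases before the start in SHISA2 and 30 in TMSB10 and was found in 5.09% of all promoters on either strand. It was searched for after these sequences had been seen.

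The other motifs were searched on both strands in all 6 promoters. The GC box GGGCGG was present in 5 of 6, every gene but SYT11, against 42.3% of all promoters. CCAAT was found in SRPX alone (33.0% of promoters), the heat shock element TTCNNGAA in SYT11 alone (6.72%) and the ETS motif CCGGAA in NANOS1 alone (14.8%). None of the 6 windows held TATAAA (11.1%), TGACGTCA (1.77%), TGANTCA (6.60%), TGACNNNGC (11.0%) or CACGTG (6.49%). The NANOS1 window was 83.2% G and C, higher than 99.0% of promoters, and the others ranged from 60.0% in SYT11 to 78.0% in TMSB10. These matches are letters in a window and nothing about a bound factor was measured.

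SYT11 (ENSG00000132718, chromosome 1, 155859509 to 155885199, plus strand, 4 exons) encodes a synaptotagmin whose C2 domains do not bind calcium and which limits endocytosis in neurons. Its counts were 28, 43 and 40 in the control libraries, 489, 521 and 392 with siNAE1, 73, 68 and 64 with siUBE2M, and 38 and 30 with siURM1. The siNAE1 libraries lay far above all others, the siUBE2M libraries lay above control without overlap, and siURM1 overlapped control. Mean CPM was 2.29 ± 0.519 (SD, n = 3) in control and 36.4 ± 1.20 (n = 3) with siNAE1, a log2 fold change of 3.99 (SE 0.15) and the fifth highest of all tested genes in that knockdown.

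SYT11 was not confined to siNAE1. With siUBE2M it was at 2.09 times the control mean CPM (log2 fold change 1.06, SE 0.18), a value that came to 0.89 without the first control library, and with siURM1 at 0.973 times (log2 fold change -0.03, SE 0.23). The difference between siUBE2M and siURM1, a comparison the choice of the gene did not use, was 1.09 on the log2 scale (SE 0.21, adjusted p = 0.00012 in the quasi-likelihood test of edgeR, adjusted by Benjamini and Hochberg's method over all genes). It was 0.998 without the first siUBE2M library, just under the threshold of 1.

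SHISA2 (ENSG00000180730, chromosome 13, 26044597 to 26051031, minus strand, 2 exons) keeps immature FGF and Frizzled receptors in the endoplasmic reticulum. Its counts were 217, 253 and 243 in control, 186, 210 and 147 with siNAE1, 111, 167 and 119 with siUBE2M, and 1753 and 1699 with siURM1. Both siURM1 libraries stood above every other library, and the siUBE2M libraries were below control without overlap when scaled to depth. Mean CPM went from 14.7 ± 1.36 in control (SD, n = 3) to 114 ± 5.86 with siURM1 (n = 2), a log2 fold change of 2.95 (SE 0.11) and rank 26 of all tested genes.

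In the other knockdowns SHISA2 was at or below its control level. Against control it was at -0.06 (SE 0.11) with siNAE1, where the CPM ranges overlapped, and at -0.67 (SE 0.12) with siUBE2M on the log2 scale. Tested directly, siNAE1 was above siUBE2M by 0.62 on the log2 scale (SE 0.12, adjusted p = 0.0001, edgeR quasi-likelihood test, Benjamini-Hochberg adjusted), which is less than 2-fold.

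NANOS1 (ENSG00000188613, chromosome 10, 119029716 to 119033732, plus strand, a gene of 1 exon) represses target mRNAs with Pumilio and the CCR4-NOT deadenylase. It had 49, 72 and 49 counts in control, 195, 221 and 190 with siNAE1, 55, 70 and 68 with siUBE2M, and 439 and 311 with siURM1. It was therefore high in siNAE1 as well as in siURM1, the knockdown it was chosen for, while siUBE2M overlapped control in CPM.

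The mean CPM of NANOS1 was 3.49 ± 0.812 in control, 15.8 ± 1.08 with siNAE1, 4.47 ± 0.377 with siUBE2M (SD, n = 3 each) and 24.5 ± 4.14 with siURM1 (n = 2). The log2 fold changes against control were 2.17 (SE 0.16), 0.36 (SE 0.18) and 2.81 (SE 0.16). The siNAE1 libraries exceeded the siUBE2M libraries by 1.82 on the log2 scale (SE 0.16, adjusted p = 3.8e-11, edgeR quasi-likelihood test, Benjamini-Hochberg adjusted). The last 63 bases of the gene's listed span overlap EIF3A, a translation initiation factor subunit on the opposite strand with 8489 to 9009 counts in control, and while the libraries were made strand-specific, whether counting used the strand is not stated. EIF3A changed by 0.29, 0.69 and 0.53 (log2) in siNAE1, siUBE2M and siURM1, an order unlike that of NANOS1, and its part in the NANOS1 counts was not tested.

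SRPX (ENSG00000101955, chromosome X, 38149336 to 38220924, minus strand, 10 exons) encodes an extracellular protein with sushi repeats that is often reduced in transformed cells. Its counts were 24, 39 and 34 in control, 184, 238 and 165 with siNAE1, 60, 71 and 75 with siUBE2M, and 89 and 74 with siURM1. Every knockdown library had more than every control library, and the siNAE1 libraries were above the rest. The log2 fold changes against control were 2.93 (SE 0.18) with siNAE1, 1.26 (SE 0.20) with siUBE2M and 1.42 (SE 0.22) with siURM1.

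The extent of the SRPX rise was unequal. In the edgeR quasi-likelihood test, Benjamini-Hochberg adjusted, siNAE1 exceeded siUBE2M by 1.67 (SE 0.17, adjusted p = 8e-10) and siURM1 by 1.51 (SE 0.19, adjusted p = 8.5e-08) on the log2 scale. The difference of siUBE2M from siURM1 was -0.16, with a 95% interval from -0.57 to 0.25 and an adjusted p of 0.58 by the same test, and their CPM ranges overlapped.

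GJB2 (ENSG00000165474, chromosome 13, 20187463 to 20193010, minus strand, 2 exons) encodes the connexin of inner ear and skin gap junctions whose loss is a frequent cause of inherited deafness. It had 66, 39 and 43 counts in control, 95, 116 and 82 with siNAE1, 124, 109 and 61 with siUBE2M, and 100 and 91 with siURM1. In CPM no knockdown library fell below the highest control library, at 3.99, though siUBE2M replicate 3 was near it at 4.28. The log2 fold changes were 1.32 (SE 0.22), 1.17 (SE 0.22) and 1.04 (SE 0.25) in siNAE1, siUBE2M and siURM1, and single libraries moved them across the 2-fold line, to 0.92 for siUBE2M without its first library and to 0.91 for siURM1 without the second control library.

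No difference of GJB2 between knockdowns passed the test (edgeR quasi-likelihood test, Benjamini-Hochberg adjusted). The log2 differences were 0.15 for siNAE1 over siUBE2M (95% interval -0.27 to 0.57, adjusted p = 0.58), 0.28 for siNAE1 over siURM1 (-0.19 to 0.75, adjusted p = 0.37) and 0.13 for siUBE2M over siURM1 (-0.35 to 0.60, adjusted p = 0.72). The intervals leave room for differences in either direction. The first and the last of these changed sign when 1 siUBE2M library was left out, to -0.10 without replicate 3 and to -0.13 without replicate 1.

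TMSB10 (ENSG00000034510, chromosome 2, 84905625 to 84906675, plus strand, 3 exons) encodes thymosin beta 10, which holds actin monomers out of filaments. Its counts were 1304, 1360 and 1172 in control, 2933, 3590 and 2776 with siNAE1, 2363, 2590 and 3003 with siUBE2M, and 3165 and 3238 with siURM1. All 8 knockdown libraries were above all 3 control libraries. Its counts were the highest of the 6 genes and its errors the smallest, and its log2 fold changes were 1.62 (SE 0.08), 1.23 (SE 0.08) and 1.42 (SE 0.08).

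Among the knockdowns, TMSB10 was higher with siNAE1 than with siUBE2M by 0.39 on the log2 scale (95% interval 0.24 to 0.54, adjusted p = 6e-05, edgeR quasi-likelihood test, Benjamini-Hochberg adjusted), less than 2-fold. By the same test, siNAE1 over siURM1 was 0.20 (0.03 to 0.37, adjusted p = 0.056) and siUBE2M minus siURM1 was -0.19 (-0.36 to -0.02, adjusted p = 0.071). The gene's span is overlapped in full, over 1051 bases, by TRABD2A on the opposite strand, though their exons share 9 bases in a later annotation. TRABD2A had 15 to 32 counts in control against 1172 to 1360 for TMSB10. It was at -0.32, -0.16 and -1.35 against control (log2) in siNAE1, siUBE2M and siURM1. The processed pseudogenes TMSB10P1, TMSB10P2 and AL513423.1 had at most 2 counts.

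**Figure D1:**
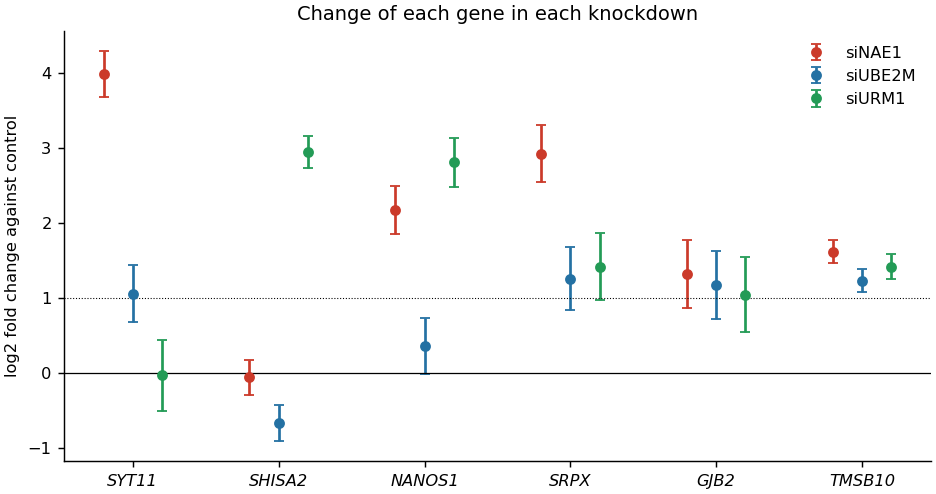
Log2 fold change against control of the 6 genes in siNAE1, siUBE2M and siURM1, with 95% intervals from the fit over all genes; the dotted line marks 2-fold. The highest values were 3.99 for SYT11 in siNAE1 and 2.95 for SHISA2 in siURM1, NANOS1 was raised in siNAE1 (2.17) as well as siURM1 (2.81), and GJB2 and TMSB10 lay between 1.04 and 1.62 in all 3.

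Across all 18368 tested genes, 5.30% were higher than control by at least 2-fold at an adjusted p under 0.05 with siNAE1, 3.22% with siUBE2M and 2.89% with siURM1. By the same rule 8.61%, 3.89% and 4.73% were lower, and 0.501% (92 genes) were higher in all 3. At an adjusted p under 0.05 alone, 27.6%, 22.7% and 20.8% were higher and 27.1%, 22.6% and 20.8% lower. SRPX, GJB2 and TMSB10 are among those 92, and nothing is read from that since the rule chose them for it. Ordered by the smallest of a gene's 3 log2 fold changes they were the 42nd, 78th and 45th of the 92, so that they rose in all knockdowns without being the genes that rose most there. The largest single rises were those of SYT11 (rank 5 in siNAE1), SRPX (rank 22 in siNAE1), SHISA2 (rank 26 in siURM1) and NANOS1 (rank 32 in siURM1).

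Of the 12 between-knockdown comparisons that were tested, 4 were past both thresholds: SYT11 and NANOS1 each in 1 and SRPX in 2. Another 2, SHISA2 and TMSB10 in siNAE1 against siUBE2M, had an adjusted p under 0.05 at less than 2-fold. That p alone was met by 44.3% of all tested genes there (38.6% for siNAE1 against siURM1 and 35.0% for siUBE2M against siURM1). The calls past both thresholds were 2 of 5 tested genes for siNAE1 against siUBE2M, where 7.84% of all tested genes were past both thresholds, 1 of 3 for siNAE1 against siURM1 (6.76%) and 1 of 4 for siUBE2M against siURM1 (5.41%). The genes had been chosen for large changes from control in these libraries, which for SRPX, GJB2 and TMSB10 included all 3 knockdowns, so their share is not read against that of all genes.

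**Figure D2:**
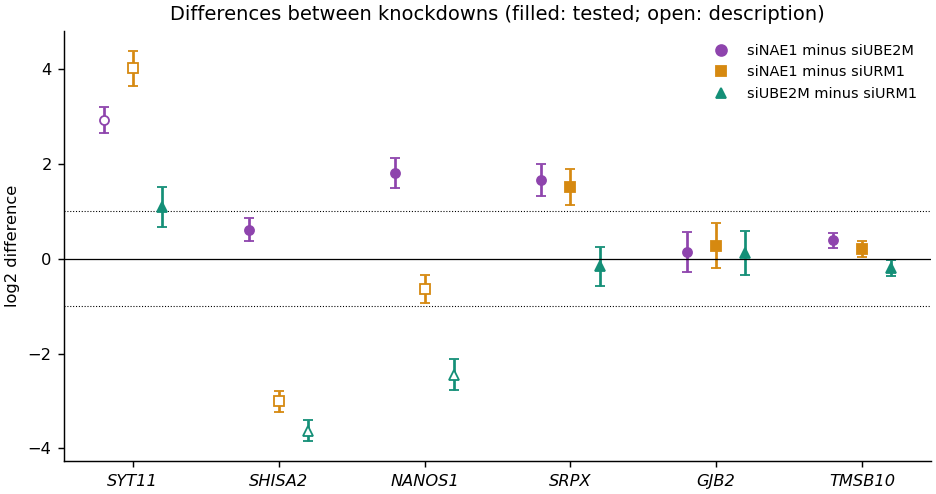
Log2 differences between knockdowns for the 6 genes with 95% intervals, with tested comparisons told apart from those given as a description. SRPX was higher in siNAE1 than in siUBE2M (1.67) and siURM1 (1.51), whereas the 3 intervals of GJB2 all included 0.

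Levels of the 6 genes were compared per length with the deposited FPKM, in which counts are divided by gene length and sequencing depth. In control TMSB10 stood highest at a mean of 157, followed by SHISA2 at 5.09, GJB2 at 1.18, SRPX at 0.998, NANOS1 at 0.863 and SYT11 at 0.433. The control ranges of GJB2 (0.938 to 1.54), SRPX (0.719 to 1.20) and NANOS1 (0.726 to 1.10) overlapped, so their order is within the spread of the libraries.

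With siNAE1 the order became TMSB10 (481), SRPX (7.54), SYT11 (6.85), SHISA2 (4.85), NANOS1 (3.89) and GJB2 (2.94), with overlap only between SRPX (7.02 to 8.26) and SYT11 (6.62 to 7.07). With siURM1 it was TMSB10 (422), SHISA2 (39.4), NANOS1 (6.04), SRPX (2.67), GJB2 (2.44) and SYT11 (0.421), with no overlap between neighbours. With siUBE2M it was TMSB10 (368), SHISA2 (3.16), GJB2 (2.66), SRPX (2.38), NANOS1 (1.10) and SYT11 (0.901), and there the range of GJB2 (1.67 to 3.55) overlapped those of SHISA2 (2.83 to 3.77) and SRPX (2.20 to 2.63), and the ranges of NANOS1 and SYT11 overlapped. The level of SHISA2 rests on a listed length of 2860 bases, against 3845 in a later annotation whose start lies 985 bases further upstream.

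The families and partners of the 6 genes were read from lists of 82 tested genes without the 6 themselves. Past both thresholds, 7 were higher and 2 lower than control with siNAE1, 4 and 1 with siUBE2M, and 8 and 2 with siURM1 (by DESeq2 5 and 2, 4 and 1, and 8 and 2), beside the shares of all genes given above. The median log2 fold changes over all 18368 genes were -0.00, 0.01 and -0.02 in the 3 knockdowns, and the adjusted p-values that follow come from the edgeR quasi-likelihood fit, Benjamini-Hochberg adjusted over all of them. Counts at an unadjusted p under 0.05 are given without the share of all genes, and nothing is read from them.

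The list most like TMSB10 held 17 tested genes for beta-thymosins, actin and proteins that bind actin monomers, and several rose with it. ACTG1, cytoplasmic gamma actin, rose in all 3 knockdowns by 1.40, 1.46 and 1.42 on the log2 scale in siNAE1, siUBE2M and siURM1 (SE 0.06 in each, adjusted p = 4.6e-19, 4.8e-19 and 8.1e-18). PFN1, profilin, which readies actin monomers for assembly, rose by 1.39 with siNAE1 and 1.05 with siURM1. ACTB, cytoplasmic beta actin, rose by 1.18 with siNAE1.

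Among TMSB10's own relatives, the other beta-thymosins, TMSB4X rose by 1.10 with siURM1 (363 to 393 counts in control, 734 and 800 with siURM1). TMSB15A rose by 1.00 with siNAE1, at the threshold itself, and was not called by DESeq2 (3 higher genes of the list there against 4 by edgeR), and TMSB15B by 1.38 with siUBE2M, where its counts ran from 18 to 72. TWF1, twinfilin, another actin monomer binder, rose by 1.28 with siURM1. No gene of this list fell past both thresholds in any knockdown, and DESeq2 also called 0. At an adjusted p under 0.05 alone, 10 were higher and 4 lower in siNAE1, 9 and 2 in siUBE2M, and 9 and 2 in siURM1. Of all tested genes 27.6% and 27.1%, 22.7% and 22.6%, and 20.8% in each direction did so. At an unadjusted p under 0.05, 4, 2 and 3 were lower in siNAE1, siUBE2M and siURM1. Its medians were 0.41, 0.22 and 0.40. Between knockdowns no gene of it passed both thresholds by either tool, with 12, 11 and 11 at an unadjusted p under 0.05. At an adjusted p under 0.05, 8 were higher and 3 lower in siNAE1 than in siUBE2M. By the same cut 5 and 4 were so in siNAE1 against siURM1, and 3 and 8 in siUBE2M against siURM1. Of all tested genes 44.3%, 38.6% and 35.0% passed that cut in either direction.

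The FGF and Frizzled receptors that SHISA2 acts on, with the Wnt co-receptors, made a list of 16 tested genes. With siURM1, the knockdown in which SHISA2 stood at 7.74 times control, FZD8 rose by 2.12 (207 to 218 counts in control, 792 and 952 with siURM1, adjusted p = 5.6e-16), FZD4 by 1.23 and FZD7 by 1.18. All 16 had a positive log2 fold change there, 14 of them with an adjusted p under 0.05 (20.8% of all tested genes), and the median was 0.58. With siNAE1 and siUBE2M 10 and 12 were positive, 9 and 8 were higher at an adjusted p under 0.05 (27.6% and 22.7% of all genes), and the medians were 0.35 and 0.28. With siNAE1 none passed both thresholds, with 11 at an unadjusted p under 0.05 and 0 called by DESeq2, and with siUBE2M FZD10 alone did, at -1.05.

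FZD8 was also higher in siURM1 than in siNAE1 and siUBE2M, with log2 differences of -1.76 and -2.19 for those knockdowns minus siURM1 (adjusted p = 5.8e-14 and 6.7e-16). FZD10 likewise stood lower in both than in siURM1 (-1.34 and -1.67). Of the Shisa family, 5 other members were tested. SHISA4 fell by 1.79 with siNAE1 and, while SHISA2 was at its highest, fell by 2.36 with siURM1 (94 to 126 counts in control, 17 and 24 with siURM1), and SHISA7 was 1.10 higher in siNAE1 than in siUBE2M.

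Of 13 other synaptotagmins tested, 1 was higher and 1 lower past both thresholds with siNAE1 (5.30% and 8.61% of all tested genes), 1 was higher with siUBE2M (3.22%) and 0 passed with siURM1. With siNAE1, SYT5 rose by 1.55 at low counts (6 to 15 in control, 19 to 27 with siNAE1) and SYT16 fell by 2.11 (53 to 102 in control, 6 to 19 with siNAE1). With siUBE2M, SYT13 rose by 1.75 from 5 to 13 counts in control to 15 to 34. With siURM1 none passed both thresholds by edgeR or DESeq2, with 6 at an unadjusted p under 0.05. The medians were 0.38, -0.17 and -0.12.

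Further synaptotagmins passed both thresholds between knockdowns and not against control. SYT6 was higher (1.02) and SYT12 lower (-1.81) in siNAE1 than in siUBE2M, and SYT7 was lower (-1.17) and SYT17 higher (1.12) in siNAE1 than in siURM1. Counted with SYT5, SYT13 and SYT16, 2 of 13 were higher and 3 lower in siNAE1 than in siUBE2M. The counts were 2 and 2 for siNAE1 against siURM1, and 1 and 0 for siUBE2M against siURM1. Of all tested genes 7.84%, 6.76% and 5.41% passed both thresholds there. Synaptotagmins share a pair of C2 domains, through which several of them sense calcium.

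NANOS1 works in mRNA repression with Pumilio proteins and the CCR4-NOT complex. Of 16 tested Nanos, Pumilio and CCR4-NOT genes, none passed both thresholds against control in any knockdown by edgeR or DESeq2, with 9, 4 and 7 at an unadjusted p under 0.05 in siNAE1, siUBE2M and siURM1. At an adjusted p under 0.05 alone, 3 were higher and 4 lower in siNAE1, 2 and 2 in siUBE2M, and 1 and 2 in siURM1, shares no larger than those of all tested genes (27.6% and 27.1%, 22.7% and 22.6%, and 20.8% in each direction). In siUBE2M CNOT6, a deadenylase subunit, was at 0.61 (adjusted p = 1.1e-08) and PUM3, a Pumilio relative, at -0.67 (adjusted p = 2.4e-06), both named after their values were seen. The medians were -0.09, -0.03 and -0.02. NANOS3, a germ cell relative with 21 counts at most, was at -1.99 in siNAE1 minus siURM1 on the log2 scale (adjusted p = 0.0098).

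Of 6 tested relatives of SRPX, SUSD4 rose with siNAE1 by 1.58 (85 to 114 counts in control, 222 to 274 with siNAE1, adjusted p = 7.6e-11) and was higher there than in siUBE2M (2.12) and siURM1 (1.23). SUSD2 rose by 1.60 with siNAE1 from 4 to 6 counts to 10 to 13, a call that DESeq2 did not make (1 higher gene of the list against 2 by edgeR), and SUSD1 was 1.13 higher in siNAE1 than in siURM1. All 6 had a positive log2 fold change with siNAE1, with a median of 0.60, and the medians were -0.03 and -0.05 with siUBE2M and siURM1, where none passed both thresholds by edgeR or DESeq2 and 1 and 2 had an unadjusted p under 0.05.

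Of 9 other connexins and pannexins, GJA5, a connexin of arterial and atrial cells, fell by 2.06 with siURM1 from 11 to 18 counts to 0 and 6. At an adjusted p under 0.05 alone, 3 of the 9 were higher and 1 lower in siNAE1, 2 and 0 in siUBE2M, and 4 and 1 in siURM1. Of all tested genes 27.6% and 27.1%, 22.7% and 22.6%, and 20.8% in each direction did so. The medians were 0.18, 0.14 and 0.32.

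The nearest genes were read beside the 6. GON4L starts 109 bases from SYT11 on the opposite strand and was at 0.00, 0.38 and 0.11 against control (log2) in siNAE1, siUBE2M and siURM1, where SYT11 was at 3.99, 1.06 and -0.03. GJA3, the connexin gene next to GJB2 at 26414 bases, was at 0.65, -0.01 and 0.32. SYTL5, 20517 bases from SRPX, fell by 2.04 with siURM1 while SRPX rose.

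ATP8A2 beside SHISA2 (18746 bases) fell by 1.09 with siNAE1, CRYL1 beside GJB2 fell by 1.04 with siNAE1, and DNAH6 beside TMSB10 (86036 bases) fell by 1.87 with siNAE1 and fell by 1.54 with siURM1. FAM45A beside NANOS1 was at 0.52, 0.22 and 0.42 (adjusted p = 1.4e-05, 0.05 and 0.0013) in siNAE1, siUBE2M and siURM1. It was lowest in siUBE2M as NANOS1 was, but highest in siNAE1, while NANOS1 was highest in siURM1. RIT1 beside SYT11 was at 0.31, 0.55 and -0.54 (adjusted p = 0.0042, 5e-06 and 0.0001). The changes of FAM45A and RIT1 against control were less than 2-fold. Neither these genes nor RNF6, CACUL1, RPGR and KCMF1, the remaining nearest tested genes, passed both thresholds against control. Between knockdowns RIT1 passed both, at 1.09 in siUBE2M minus siURM1 (log2, adjusted p = 8.1e-10), where SYT11 was also at 1.09. A link between them was not tested. SRPX lies within the span of AF241726.2, which had no counts.

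For each of the 6, the 3 genes with the most like profile were found as the smallest root mean square difference between gene-centred log2 CPM over the 11 libraries, among the 10468 genes whose mean reached 10 CPM, or 10467 where the gene itself was one of them. TMSB10 had the closest matches, among them MSMO1 (0.0899) and CTSA (0.151), against a spread of TMSB10 itself of 0.656. MSMO1 is an enzyme of cholesterol synthesis and CTSA a lysosomal carboxypeptidase. Their log2 fold changes with siNAE1 were 1.56 and 1.57.

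NANOS1 was most like GPR50 (0.244), ADAMTS1 (0.261) and INSIG1 (0.331), an endoplasmic reticulum protein that holds back sterol synthesis. Their log2 fold changes were 2.11, 2.19 and 2.32 with siNAE1 and 2.33, 2.32 and 2.67 with siURM1, and with siUBE2M they were 0.17, 0.42 and 1.04, where NANOS1 was at 0.36. SRPX was most like TNFRSF10D (0.254), a decoy receptor for TRAIL, NDRG1 (0.258), a stress-responsive gene, and SNHG19 (0.337), a host gene of small nucleolar RNAs. GJB2 was most like TMEM102 (0.231), P2RY1 (0.236) and RUBCN (0.251), though its own spread was only 0.601.

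SHISA2 was nearest to GAS1 (0.510), a surface protein that binds Hedgehog, UNC13A (0.512) and FZD8 (0.535) with log2 fold changes of 2.09, 2.49 and 2.12 in siURM1. SYT11 had no close match: SNHG19 (0.905), NDRG1 (0.905) and HES7 (0.920) lay at more than 0.9 from it, against its own spread of 1.65. The likeness is a description over libraries that share group and depth.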

How the data were processed

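RNA sequencing libraries of HEK293T cells were analysed in 4 groups as the labels give them. Per the study's methods and processing notes, the authors used fastp for trimming, HISAT2 2.0.5 for alignment to GRCh38 and featureCounts 1.5.0-p3 for fragment counts per gene, deposited raw. The authors also deposited FPKM, which divide those counts by gene length and depth. The libraries were strand-specific (second strand made with dUTP). Neither the annotation version nor whether counting used strand is given in the sources used here. Every column of values belonged to 1 library (0 unmapped), and no 2 libraries were identical.

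Counts were fitted in R 4.3.3 with edgeR 4.0.16 (filterByExpr, TMM, quasi-likelihood F-test, all 11 libraries and 4 groups in 1 fit), with Benjamini-Hochberg adjustment over 18368 genes and thresholds of adjusted p under 0.05 and a change of 1 or more on the log2 scale. The biological coefficient of variation was 7.06%. CPM used TMM-scaled library totals, and profiles used log2 CPM with a prior count of 2. The fit was checked on simulated counts with 200 changed genes. Alternatives were RLE scaling, DESeq2 1.42.0, no filter, 2 groups per fit, a replicate block, leaving out each library and calls without a fold threshold. The 6 genes and the lists were chosen with earlier results of these data known. By rule the named genes were the 6 genes, the 3 targets, list genes past both thresholds in any comparison, overlapping and nearest tested genes, and the 3 genes of most like profile. CNOT6 and PUM3, the cell markers and the TMSB10 pseudogenes were named outside this rule. Values of 2 genes that the rule names are not reported here. Promoters and the share of promoters with a motif came from a RefSeq table of GRCh38.p14, which held all 6 genes. Counting depth limits precision, and standard errors cover the spread between libraries.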

Additional observations from a re-analysis of the deposited data

How the results depend on the processing

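Under RLE scaling, DESeq2, no low-count filter and 2 groups per fit, no value of the 6 genes changed direction or its side of the joint thresholds (the tested differences with an adjusted p under 0.05 alone went from 6 to 8 without the filter, 7 with 2 groups per fit, and 6 to 8 with single libraries left out), and none of these moved a log2 value by more than 0.0178. Leaving out single libraries moved the SYT11 difference of siUBE2M from siURM1 between 0.998 and 1.19, the GJB2 difference of siNAE1 from siUBE2M between -0.0954 and 0.400 and that of siUBE2M from siURM1 between -0.134 and 0.372. The 4 tested differences past both thresholds stayed 4 under all alternatives but the loss of the first siUBE2M library, which left 3. Without a fold threshold the lists held 33 higher and 16 lower genes in siNAE1, 24 and 10 in siUBE2M, 31 and 11 in siURM1, 28 and 18 for siNAE1 against siUBE2M, 20 and 27 for siNAE1 against siURM1, and 12 and 25 for siUBE2M against siURM1. Leaving out single libraries moved the counts past both thresholds, higher and lower, to 5 to 8 and 2 to 4 in siNAE1, 3 to 5 and 0 to 1 in siUBE2M, 8 to 10 and 1 to 4 in siURM1, 2 to 4 and 5 to 6 for siNAE1 against siUBE2M, 3 to 5 and 4 to 7 for siNAE1 against siURM1, and 2 to 3 and 2 to 4 for siUBE2M against siURM1. The count of 0 in siUBE2M arose by edgeR without the second control library, where 12 had an unadjusted p under 0.05 in that direction, and DESeq2 on all libraries called 1. The cause was not tested.

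With the replicate number as a block, the SYT11 difference of siUBE2M from siURM1 was 1.10, the 4 calls stayed 4, the differences with an adjusted p under 0.05 alone went from 6 to 7 and the largest shift of a log2 value was 0.133, for GJB2. Over all genes the counts of calls moved from 2555, 1306 and 1399 to 2534, 1285 and 1385 against control. Deviations of libraries with the same number had correlations of r from -0.0657 to 0.0787 over 15 pairs. Of 11 libraries, 3 correlated best with one of their own number. No pairing by number was detected, and whether libraries shared a transfection or a processing batch was not tested. Depth limits SYT11, SRPX and GJB2 most, which had at most 66 counts in a control library.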
